A study of Callithrix jacchus with 4 samples.

Results

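The genes described here encode 6 structural microtubule-associated proteins (MAPs): MAP1A, MAP1B, MAP2, MAP4, MAP6 and MAPT, the gene of tau. They were chosen by gene symbol, all 6 have a row among the 35205 genes of the count table, and all 6 passed the low-count filter that left 16956 genes for testing. The transcripts were measured by RNA-seq in forebrain tissue of common marmosets aged postnatal day 5. Of the 4 libraries, 2 are wild-type and 2 carry an FMR1 mutation introduced by CRISPR/Cas9. The forebrain sampled included hippocampus, striatum and cerebral cortex, and each library's own label gives only brain. The exact FMR1 allele, the sex, the litter and the number of founder animals were not given in the sources used here.

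Microtubules are hollow polymers of tubulin that give axons and dendrites their shape and serve as tracks for transport. Structural MAPs bind along the polymer wall, where they stabilise it and set its spacing and its traffic. MAP1B is made early, in growing axons, while the related MAP1A becomes abundant as neurons mature. MAP2 marks the cell body and dendrites, tau is enriched in axons, MAP6 makes microtubules resistant to cold, and MAP4 is present in neuronal and non-neuronal cells alike. FMRP, the protein made from FMR1, binds mRNAs and represses the translation of many of them, and MAP1B mRNA is one of its classic targets. RNA-seq counts report transcript abundance, so they do not measure this translational control.

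Total counts were between 12331639 and 13455702 per library. Levels are given as CPM, a gene's count scaled by its library's size after TMM (trimmed mean) normalisation, and values in the mutant libraries are compared with the wild-type libraries throughout. FMR1 itself was at 86.3 and 78.6 CPM in wild-type replicates 1 and 2 and at 81.1 and 118.9 CPM in mutant replicates 1 and 2. Its transcript therefore overlapped between the groups, and some mutations do not lower the RNA of their gene, so it does not check the labels. Forebrain markers were counted in every library (TBR1, a transcription factor of cortical neurons, between 1870 and 2388 times), and the hindbrain genes HOXB3, HOXB4, HOXA5 and EN1 were at 0 counts in every library. Wild-type replicate 1 stood apart in thalamic markers, with 1272 counts of TCF7L2 against 118 to 139 in the other libraries. The 10 pan-neuronal markers summed to between 7977 and 8432 CPM and overlapped between the groups. STMN2 was the largest part of each sum, at 2560 and 2232 CPM in wild-type and 3059 and 2902 CPM in mutant libraries. Of the 10 log2 fold changes, 3 were positive and 7 negative, and THY1 passed as lower (edgeR adjusted p = 0.0162). The sums therefore do not show that neuronal content was equal. In bulk tissue, fewer cells of a type and less RNA per cell cannot be told apart.

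None of the 6 MAP genes passed the test between the groups (edgeR quasi-likelihood test, adjusted p under 0.05 after Benjamini-Hochberg adjustment over all genes tested). In the same test 2.23% of all genes tested passed (0.661% as higher and 1.57% as lower), so a count of 0 among 6 genes is near that background. DESeq2 and limma-voom called 0 of the 6 as well. At an unadjusted p under 0.05 the number was 1 by edgeR, 2 by DESeq2 and 1 by limma-voom, and 13.4% of all genes tested reached that level by edgeR. Of the 6 log2 fold changes, 3 were positive and 3 negative, with a median of 0.01 against -0.0040 over all genes tested. The 2 libraries of one group lay wholly above or below those of the other for 4 of the 6 genes, and this was true of 43.1% of all genes tested.

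**Figure D1:**
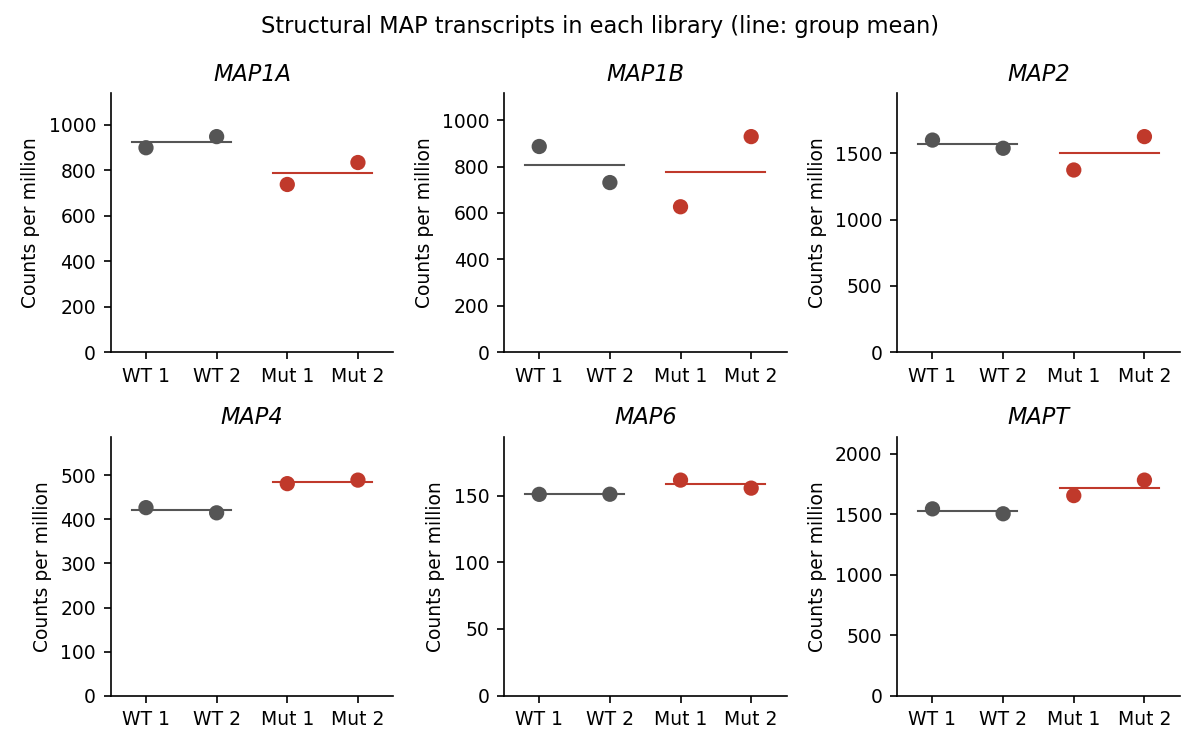
Level of each MAP transcript in CPM (vertical axis, from 0) in wild-type replicates 1 and 2 (WT, grey) and mutant replicates 1 and 2 (Mut, red), with a line at each group mean. MAP1B spanned 627 to 929 CPM within the mutant group alone, while MAP4 differed by little within either group.

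MAP1B, whose protein guides growing axons and whose mRNA FMRP binds, was at 887 and 731 CPM in wild-type replicates 1 and 2 and at 627 and 929 CPM in mutant replicates 1 and 2. The lowest and the highest of the 4 values were thus both in mutant libraries, and the wild-type values lay between them. The level averaged 809 ± 110 CPM in the wild-type group and 778 ± 214 CPM in the mutant group (SD, n = 2 each). Its log2 fold change was -0.06 (SE 0.18, 95% interval -0.48 to 0.36, edgeR adjusted p = 0.947). On the linear scale this interval runs from 0.719-fold to 1.29-fold. Its sign turned with 1 library left out: it was 0.09 without wild-type replicate 1 and 0.20 without mutant replicate 1, while leaving out mutant replicate 2 gave -0.37.

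The spread of MAP1B between the mutant libraries was large for a gene of its abundance. Mutant replicate 2 held 1.48 times the level of mutant replicate 1, a wider gap than 99.8% of the 2413 genes with a mean of at least 100 CPM. Wild-type replicate 1 held 1.21 times the level of wild-type replicate 2, a wider gap than 90.6% of these genes. The counts behind these values were between 8210 and 12523. FMR1 also had its highest value in mutant replicate 2, at 118.9 CPM. Whether the levels of the 2 transcripts are linked was not tested, since 4 libraries do not allow a correlation.

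MAP1A, the relative of MAP1B that accumulates as neurons mature, was at 898 and 947 CPM in wild-type replicates 1 and 2 and at 737 and 833 CPM in mutant replicates 1 and 2. Both mutant libraries were below both wild-type libraries. The level averaged 923 ± 34.6 CPM in the wild-type group and 785 ± 68.2 CPM in the mutant group (SD, n = 2 each), a fold of 0.851. Its log2 fold change was -0.23 (SE 0.11, 95% interval -0.46 to -0.0066), with an unadjusted p of 0.0441 that did not pass over all genes (edgeR adjusted p = 0.353). It stayed negative with any 1 library left out, between -0.32 without mutant replicate 2 and -0.15 without mutant replicate 1 (edgeR adjusted p between 0.247 and 0.816).

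The ratio of MAP1A to MAP1B counts within a library does not depend on library scaling. It was 1.01 in wild-type replicate 1 (95% counting interval 0.988 to 1.04) and 1.30 in wild-type replicate 2 (1.26 to 1.33). In mutant replicate 1 it was 1.18 (1.14 to 1.21), and in mutant replicate 2 it was 0.897 (0.874 to 0.920). Each interval is exact (Clopper-Pearson) and covers counting error only, and no pair of the 4 intervals overlapped. The libraries of 1 group therefore differed from each other by more than counting error, and the value of mutant replicate 1 lay between the 2 wild-type values.

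The ratio averaged 1.15 ± 0.200 in the wild-type group and 1.04 ± 0.197 in the mutant group (SD, n = 2 each). On the log2 scale the mutant minus wild-type difference was -0.16, smaller than the SD within either group (0.25 and 0.28). The two-sided exact permutation test gave p = 0.667, and with 2 libraries against 2 its smallest possible p is 0.333, so no difference could pass. The sign was positive without wild-type replicate 2 (0.019) or without mutant replicate 2 (0.037). Transcript lengths are not used here, so the ratio compares libraries and does not say which of the transcripts is more abundant per molecule.

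**Figure D2:**
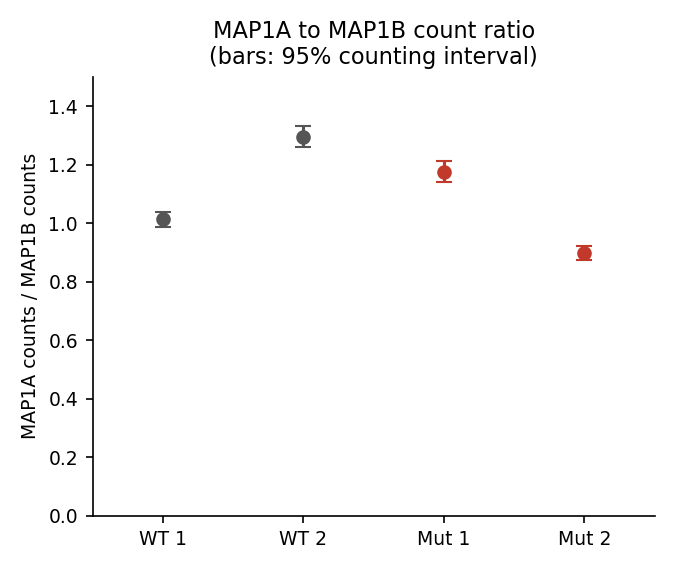
Ratio of MAP1A to MAP1B counts (vertical axis, from 0) in each library, with 95% counting intervals. The highest ratio, 1.30, was in wild-type replicate 2 and the lowest, 0.897, in mutant replicate 2, with the other 2 libraries between them.

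MAP2, the dendritic MAP, was at 1599 and 1537 CPM in wild-type replicates 1 and 2 and at 1373 and 1625 CPM in mutant replicates 1 and 2. As for MAP1B, the mutant libraries held both the lowest and the highest value. The log2 fold change was -0.06 (SE 0.11, 95% interval -0.29 to 0.16, edgeR adjusted p = 0.874), or 0.817-fold to 1.12-fold on the linear scale. Leaving out mutant replicate 1 turned it to 0.052, and leaving out mutant replicate 2 gave -0.19. The splice forms of MAP2 that change during development were not resolved by counts per gene.

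MAPT, whose protein tau binds axonal microtubules, was at 1545 and 1504 CPM in wild-type replicates 1 and 2 and at 1655 and 1783 CPM in mutant replicates 1 and 2. Both mutant libraries were above both wild-type libraries. The level averaged 1525 ± 28.7 CPM in the wild-type group and 1719 ± 90.6 CPM in the mutant group (SD, n = 2 each). Its log2 fold change was 0.17 (SE 0.11, 95% interval -0.05 to 0.39, edgeR adjusted p = 0.522). It was between 0.12 and 0.23 with any 1 library left out. In the RefSeq annotation of assembly calJac240_pri, 2 genes that overlap the span of MAPT also have a row in the table. They are STH, with 25 to 42 counts per library, and a long non-coding RNA with at most 1. MAPT itself had 18477 to 24027 counts. The same annotation places LOC144579526, a protein-coding gene, and LOC103788249, a pseudogene, over the span of MAP4, and neither has a row. How reads shared between overlapping genes were counted is not known, and their part in the values was not tested.

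MAP4, the MAP also found outside neurons, was at 427 and 415 CPM in wild-type replicates 1 and 2 and at 481 and 489 CPM in mutant replicates 1 and 2. The groups did not overlap, and the gap between them was wider than the spread within either (421 ± 8.32 against 485 ± 5.67 CPM, SD, n = 2 each). The log2 fold change was 0.21 (SE 0.11, 95% interval -0.02 to 0.43) and did not pass (unadjusted p = 0.0726, edgeR adjusted p = 0.434). The moderated test draws most of its variance estimate from other genes, so the small spread of 2 libraries carries little weight in it. With 1 library left out the value was between 0.19 and 0.23.

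MAP6, which protects microtubules from cold-induced disassembly, had the lowest counts of the set, 1855 to 2117 per library. It was at 151 CPM in both wild-type libraries and at 162 and 156 CPM in mutant replicates 1 and 2. The mutant libraries were above the wild-type libraries by a small margin. The log2 fold change was 0.07 (SE 0.12, 95% interval -0.16 to 0.31, edgeR adjusted p = 0.865). With 1 library left out it was between 0.043 without mutant replicate 1 and 0.10 without mutant replicate 2.

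**Figure D3:**
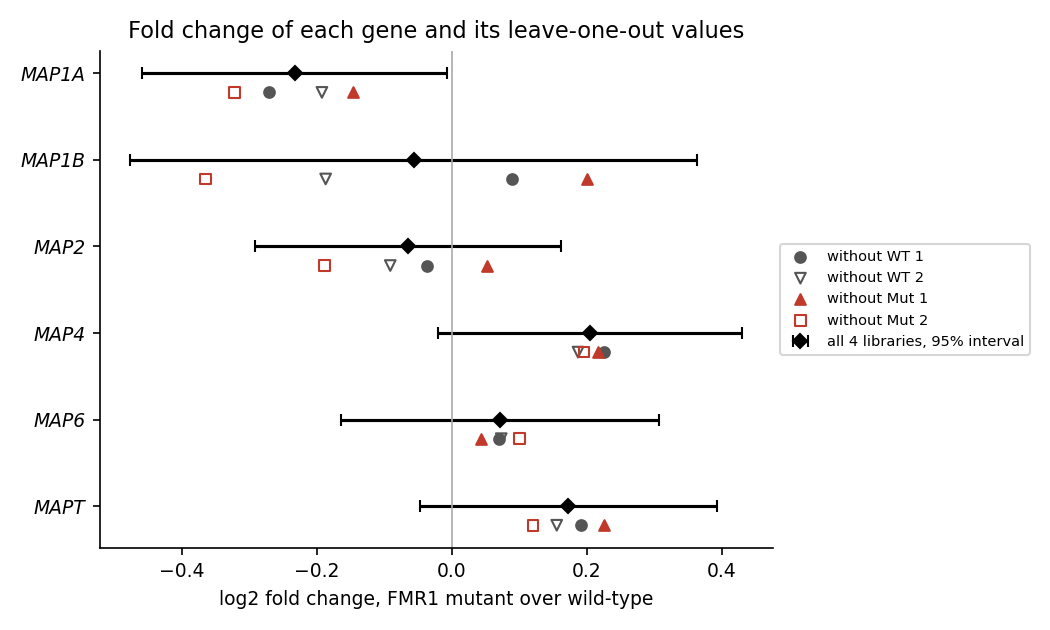
log2 fold change of each MAP gene (horizontal axis, mutant over wild-type) with its 95% interval (black) and the 4 values with 1 library left out (coloured marks below it). MAP1B moved furthest, from -0.37 to 0.20, while MAP4 stayed between 0.19 and 0.23.

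The 6 transcripts together made up 0.551% of the library in wild-type replicate 1 and 0.526% in wild-type replicate 2, against 0.501% in mutant replicate 1 and 0.582% in mutant replicate 2. The mutant libraries held the lowest and the highest total, so the groups overlapped. Within this total, MAPT made up 28.3% ± 0.284 of the counts in wild-type and 31.8% ± 1.56 in mutant libraries (SD, n = 2 each). MAP1A made up 17.1% ± 1.14 in wild-type and 14.5% ± 0.216 in mutant libraries (SD, n = 2 each). MAP4 took 7.80% ± 0.0713 against 8.98% ± 0.810, and MAP2 29.1% ± 0.0309 against 27.6% ± 0.471 (SD, n = 2 each). MAP1B, at 15.0% ± 1.60 against 14.2% ± 2.50 (SD, n = 2 each), overlapped between the groups. The share of MAP6, at 2.80% ± 0.0820 against 2.94% ± 0.378 (SD, n = 2 each), overlapped as well. These are shares of counts, which also depend on transcript length, and they were not tested.

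Ratios between the members were computed for all 15 pairs. In 8 pairs the groups did not overlap, as in 48.9% of all pairs among the 2413 genes with a mean of at least 100 CPM, and the 15 pairs are not independent since they share 6 genes. In 7 pairs the groups overlapped, among them all 4 further pairs that include MAP1B beside its ratio with MAP1A. The ratio of the dendritic MAP2 to the axonal MAPT was 1.04 and 1.02 in wild-type libraries, against 0.830 in mutant replicate 1 and 0.912 in mutant replicate 2. The MAP1A to MAP4 ratio was 2.11 and 2.28 in wild-type and 1.53 and 1.70 in mutant libraries, a log2 difference of -0.44, and the MAP1A to MAPT ratio was 0.581 and 0.630 against 0.445 and 0.467. The MAP4 to MAPT ratio overlapped between the groups, at 0.276 in both wild-type libraries, 0.291 in mutant replicate 1 and 0.274 in mutant replicate 2. Each non-overlapping pair had an exact permutation p of 0.333, the smallest that 2 against 2 libraries can give (Benjamini-Hochberg adjusted 0.625 over the 15 pairs).

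**Figure D4:**
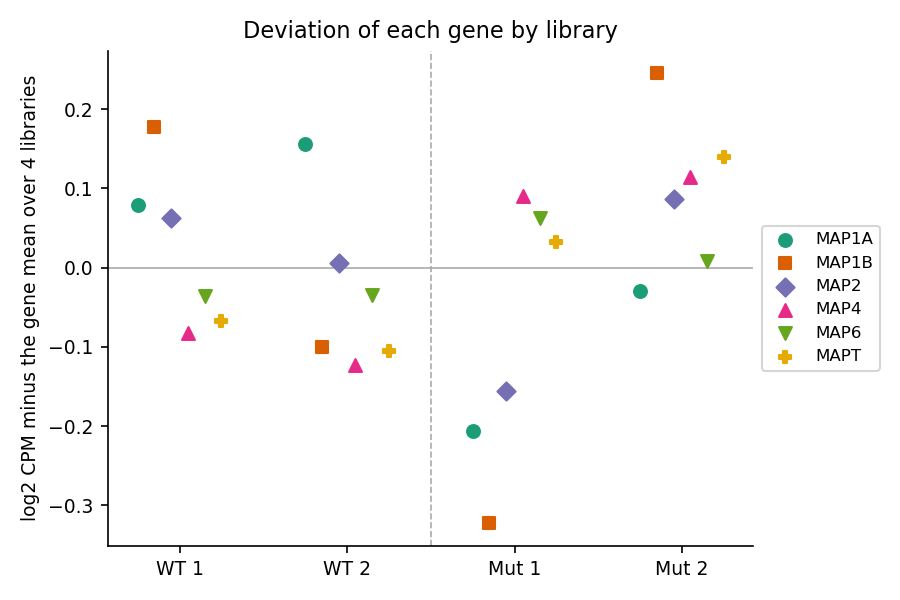
Deviation of each MAP transcript from its own mean over the 4 libraries (vertical axis, log2 CPM), by library. MAP4, MAP6 and MAPT were below their means in both wild-type libraries and above them in both mutant libraries, while MAP1B was low in wild-type replicate 2 and mutant replicate 1 and high in the other 2.

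Some cell type markers differed between the same libraries. The 17 markers of mature oligodendrocytes summed to 3911 and 3801 CPM in wild-type and 1530 and 1480 CPM in mutant libraries, and 15 of the 17 passed as lower. The 12 astrocyte markers summed to 6694 and 6801 CPM in wild-type and 5020 and 5346 CPM in mutant libraries, with 2 of 12 passed as lower. The 13 tested markers of newborn and migrating neurons summed to 2526 and 2237 CPM in wild-type and 2966 and 2937 CPM in mutant libraries, with 2 passed as higher. The part of these cell types in the MAP values was not tested.

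Among 10262 genes with a symbol and a mean of at least 10 CPM, the profile over the 4 libraries closest to that of MAP1A belonged to LARP1, an RNA-binding protein that controls translation of ribosomal protein mRNAs. Its level was 180 and 188 CPM in wild-type and 146 and 167 CPM in mutant libraries, with a root mean square difference from MAP1A of 0.0084 in centred log2 CPM. MRPS30, a protein of the mitochondrial ribosome (0.013), and DAGLA, which makes the endocannabinoid 2-arachidonoylglycerol (0.013), came next. The profiles closest to MAP1B were those of ACVR1C, an activin receptor (0.028), NINL, a centrosomal protein (0.029), and GALNT7, a glycosyltransferase (0.033). With 4 libraries such likeness describes these values only.

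Beyond the 6 members, 7 related lists named 162 genes, of which 155 were tested. A total of 9 passed, 4 higher and 5 lower (5.81% of those tested, against 2.23% of all genes tested), and 2 of the 9, EML2 and TUBA1C, passed whichever library was left out. Leaving out mutant replicate 1 reduced the number called to 4, and leaving out mutant replicate 2 reduced it to 5. Of the 9, 4 are intermediate filament genes from the list of axon and dendrite proteins and are not microtubule proteins. The lists were chosen with earlier results of these data known, and the share of 5.81% was not tested against that of all genes.

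Among 24 further lattice-binding MAPs and stathmins, 1 rose and 2 fell, with a median log2 fold change of 0.03. EML2, an echinoderm MAP-like protein that binds microtubules, was at 89.9 and 83.9 CPM in wild-type replicates 1 and 2 and at 46.2 and 47.0 CPM in mutant replicates 1 and 2 (-0.90, SE 0.13, edgeR adjusted p = 3.68e-05). EML2 had the smallest adjusted p of this list, and both of its mutant values lay far below both wild-type values. MAP7, which recruits kinesin-1 to microtubules, was at 32.4 and 32.5 CPM in wild-type and at 20.6 and 23.0 CPM in mutant libraries (-0.57, SE 0.16, edgeR adjusted p = 0.0454). MAP7 did not pass by DESeq2 (adjusted p = 0.157), by limma-voom (0.0557) or with any 1 library left out (edgeR adjusted p between 0.0934 and 0.333).

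DCX, the doublecortin of migrating neurons, was at 388 and 310 CPM in wild-type replicates 1 and 2 and at 446 and 540 CPM in mutant replicates 1 and 2 (0.50, edgeR adjusted p = 0.0241). It did not pass without wild-type replicate 2 (0.286) or without mutant replicate 2 (0.255). Its relative DCLK1 had a log2 fold change of -0.12 (edgeR adjusted p = 0.723). STMN2, a tubulin-sequestering stathmin of growing axons, was at 2560 and 2232 CPM in wild-type and 3059 and 2902 CPM in mutant libraries, and the groups did not overlap (0.31, edgeR adjusted p = 0.141). TPPP, a tubulin polymerisation protein abundant in oligodendrocytes, was at 117 and 186 CPM in wild-type and 95.6 and 112 CPM in mutant libraries (-0.54, edgeR adjusted p = 0.348).

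The list held 3 genes linked to the MAP1 family by name or structure. MAP1S, a short member of the same family, was at 104 and 119 CPM in wild-type and 128 and 113 CPM in mutant libraries, which overlapped (0.12, edgeR adjusted p = 0.753). MAP1LC3A, an autophagy protein first found with MAP1 preparations, was at 203 and 245 CPM in wild-type and 226 and 214 CPM in mutant libraries (-0.03, edgeR adjusted p = 0.957). Its relative MAP1LC3B was at 178 and 172 CPM in wild-type and 194 and 167 CPM in mutant libraries, which overlapped as well (0.04, edgeR adjusted p = 0.930).

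Among 23 proteins of microtubule ends, 1 rose and 0 fell (median 0.02). CAMSAP3, which caps minus ends, was at 89.1 and 106.7 CPM in wild-type and at 147 and 134 CPM in mutant libraries (0.52, SE 0.12, edgeR adjusted p = 0.0152). It did not pass without wild-type replicate 1 (0.231) or without mutant replicate 1 (0.137). APC, which binds plus ends in growing neurites, had the next smallest p (-0.34, edgeR adjusted p = 0.147) and passed without mutant replicate 2 (0.0287).

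None of 28 kinases and phosphatases that act on MAPs passed by edgeR, DESeq2 or limma-voom (median 0.04). Over all genes tested, 13.4% were at an unadjusted p under 0.05 by edgeR, and in this list 1 gene was. It was TTBK2, a tau-tubulin kinase, at 57.1 and 55.1 CPM in wild-type and 45.7 and 45.8 CPM in mutant libraries (-0.30, edgeR adjusted p = 0.315). GSK3B, a main kinase of tau and MAP1B, was at 126 and 118 CPM in wild-type and at 83.8 and 137 CPM in mutant libraries (-0.14, edgeR adjusted p = 0.858). Like MAP1B, it had its lowest value in mutant replicate 1 and its highest in mutant replicate 2. CDK5, another neuronal kinase of MAPs, overlapped between the groups (0.16, edgeR adjusted p = 0.683).

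None of 22 tested enzymes that modify tubulin or sever microtubules passed by edgeR, DESeq2 or limma-voom (median -0.01). At an unadjusted p under 0.05 by edgeR there were 3 of the 22, against 13.4% of all genes tested. ATAT1, the tubulin acetyltransferase, was at 104 and 119 CPM in wild-type and 155 and 143 CPM in mutant libraries (0.42, SE 0.12, edgeR adjusted p = 0.0554). It lay just outside the threshold. ATAT1 passed with the replicate number as a block (0.0481) and with no low-count filter (0.0281). It also passed with a minimum mean of 1 CPM in place of the filter (0.0487). It did not pass by DESeq2 (adjusted p = 0.0677), by limma-voom (0.0676) or by edgeR with robust = FALSE (0.0650). SVBP, the partner of the enzymes that remove tyrosine from tubulin, was next (0.51, SE 0.18, edgeR adjusted p = 0.147).

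Of 19 tubulins and tubulin folding cofactors, 15 were tested, and 1 rose and 0 fell (median 0.01). TUBA1A, TUBA1B, TUBB3 and TUBG1 had no row under these symbols in the count table. TUBA1C, an alpha-tubulin, was at 72.2 and 61.3 CPM in wild-type and at 130 and 117 CPM in mutant libraries (0.89, SE 0.13, edgeR adjusted p = 3.37e-05). Alpha-tubulin genes are near copies of each other, and TUBA1A and TUBA1B could not be compared with it. How reads shared between copies were counted was not given in the sources used here, so the TUBA1C value is uncertain. TUBB2B, a beta-tubulin of young neurons, was at 1253 and 1130 CPM in wild-type and 1535 and 1524 CPM in mutant libraries and did not pass by edgeR (0.36, adjusted p = 0.0774), though it did by DESeq2 (adjusted p = 0.0293).

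None of 24 motor subunits passed by edgeR or limma-voom, and 1 passed by DESeq2 (median -0.01). At an unadjusted p under 0.05 by edgeR there were 2 of the 24, against 13.4% of all genes tested. The gene called by DESeq2 was DYNC1I2, a dynein intermediate chain, at 173 and 152 CPM in wild-type and 219 and 212 CPM in mutant libraries (0.41, SE 0.12, edgeR adjusted p = 0.0554, DESeq2 adjusted p = 0.0457). It also passed with the replicate number as a block (edgeR adjusted p = 0.0426) and with no low-count filter (0.0295). It did not pass with a minimum mean of 1 CPM in place of the filter (0.0507) or with robust = FALSE (0.0622). DYNC1I1, the other intermediate chain, was second (0.26, edgeR adjusted p = 0.327). The neuronal kinesins KIF5C (-0.21, edgeR adjusted p = 0.427) and KIF1A (-0.16, edgeR adjusted p = 0.556) did not pass.

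The list of 21 axon and dendrite proteins, which also holds MAP2 and MAPT, had 1 higher and 3 lower (median 0.03). The neurofilament genes NEFH (-0.72), NEFL (-0.49) and NEFM (-0.48) fell and INA, the internexin of younger axons, rose (0.46), with edgeR adjusted p between 0.00399 and 0.0218. Without wild-type replicate 1, the library high in thalamic markers, none of the 3 neurofilament genes passed (edgeR adjusted p = 0.165 for NEFH, 0.335 for NEFL and 0.211 for NEFM). INA did not pass without wild-type replicate 2 (0.261). Leaving out either mutant library reduced the list's count to 1, NEFH without mutant replicate 1 and NEFM without mutant replicate 2. The part of the thalamic content of wild-type replicate 1 in the neurofilament values was not tested. GAP43, a growth cone protein, was at 794 and 688 CPM in wild-type and 918 and 871 CPM in mutant libraries (0.27, edgeR adjusted p = 0.251).

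**Figure D5:**
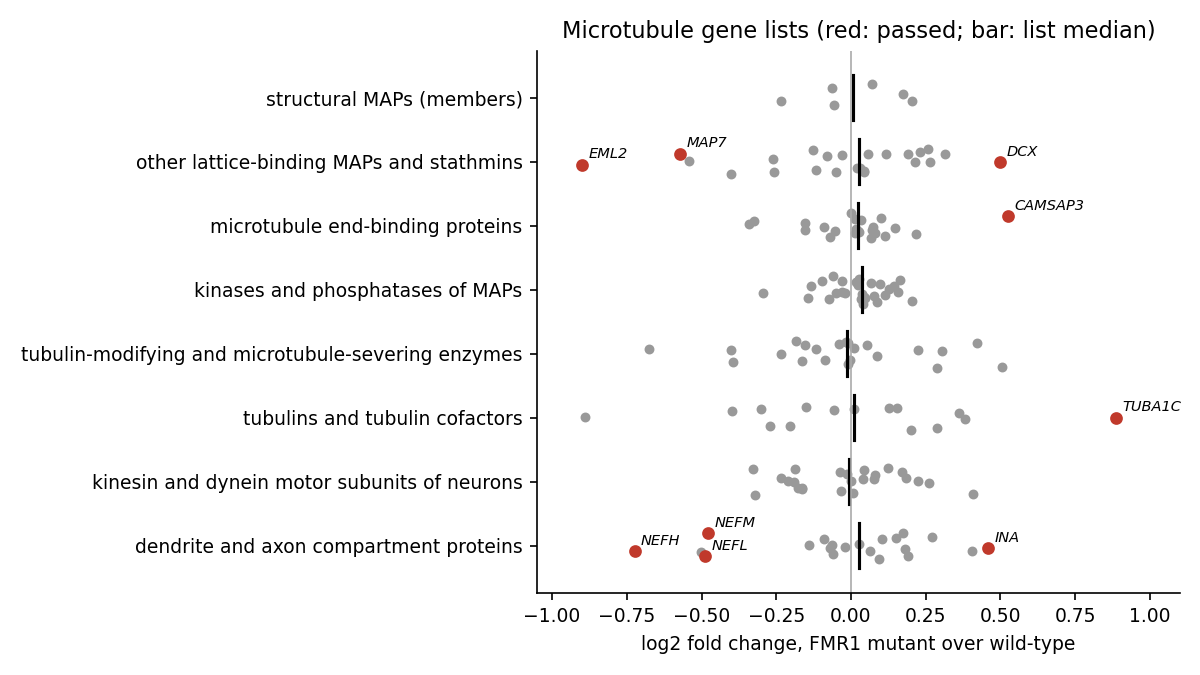
log2 fold change (horizontal axis, mutant over wild-type) of each tested gene of the MAP set and of the 7 related lists, with called genes in red and list medians as black bars. The list medians lay between -0.01 and 0.04, and the 6 structural MAPs between -0.23 and 0.21.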

How the data were processed

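Counts per gene were taken from 1 table of raw whole-number counts that the authors deposited for 4 libraries. Per the labels' protocols, RNA was poly(A)-selected and made into directional libraries. Trimmomatic 0.38 and STAR 2.7.10a are listed in the submitters' processing notes. How reads were assigned to genes (tool, strand, annotation, build) was not given in the sources used here. Genes passing filterByExpr (minimum count 10) were scaled by TMM and compared with edgeR 4.0.16 in R 4.3.3 (quasi-likelihood, robust = TRUE, no covariates, 2 residual and a median of 31.6 prior degrees of freedom, coefficient of biological variation 11.3%). The SE is the log2 fold change divided by the square root of F, and intervals use the total degrees of freedom. The test was checked on simulated data. It recovered 19.4% of genes given a log2 change of 0.5, 60.9% at 1.0 and 90.6% at 2.0, with 7 false calls among 118. The changed genes were drawn at random from all genes tested. These rates are therefore not those of genes as abundant as the members. The members' log2 fold changes, -0.23 to 0.21, were smaller than the smallest size simulated. Their failure to pass therefore does not show that they were unchanged. DESeq2 1.42.0 (all rows fitted, no filter before the fit) and limma 3.58.1 (voom) were alternatives. DESeq2 kept its default independent filtering, which leaves genes of low mean count out of the p-value adjustment. Fits with 1 library left out used the same 16956 genes, and the lone library was assumed to vary like the others.

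Replicates differed by more than sampling noise (chi-square per degree of freedom 7.28 in wild-type and 6.90 in mutant). Whether the libraries came from different animals is not stated, so p-values reflect only the spread among libraries, which may be technical. Members and lists were chosen with earlier results of these data known. Named genes are the members, up to 4 called genes per list by p (or the 2 of smallest p), and the 3 closest profiles to MAP1A and to MAP1B. The following were named outside this rule: MAP1S, MAP1LC3A, MAP1LC3B, DCLK1, STMN2, TPPP, GSK3B, CDK5, KIF5C, KIF1A and GAP43, together with the descriptive gap between replicates and the ratios other than MAP1A to MAP1B. Of the other marker lists, 2 of 10 tested genes of oligodendrocyte precursors, 3 of 12 of microglia and 1 of 10 of all neurons passed as lower, and 1 of 13 of forebrain as higher. By edgeR 0 of 11 of vessels, 0 of 6 of thalamus and hindbrain and 0 of 1 of blood passed. At an unadjusted p under 0.05 by edgeR these lists had 2, 2 and 0, against 13.4% of all genes tested. DESeq2 and limma-voom also called 0 in these lists. No sequence is printed, since none was used here.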

Additional observations from a re-analysis of the deposited data

How the results depend on the processing

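No member passed under any of the 12 alternatives. MAP1A kept a negative and MAP4, MAP6 and MAPT a positive log2 fold change in all 12. MAP1B turned to 0.09 without wild-type replicate 1 and 0.20 without mutant replicate 1 (range -0.37 to 0.20 with 1 library left out), and MAP2 to 0.052 without mutant replicate 1 (range -0.19 to 0.052). The MAP1A to MAP1B difference ranged from -0.35 to 0.037 with 1 library left out, and was 0.019 without wild-type replicate 2. All genes called numbered 378, 244 by DESeq2, 633 with no low-count filter and 163 to 562 with 1 library left out. Listed genes called numbered 9, 15 with no low-count filter and 4 to 8 with 1 library left out. With 1 library left out, list medians ranged from -0.012 to 0.064 for further lattice-binding MAPs, from -0.032 to 0.065 for end-binding proteins from -0.022 to 0.095 for axon and dendrite proteins, from -0.087 to -0.00085 for tubulin-modifying and severing enzymes (0 to 2 called), from -0.058 to 0.030 for motor subunits, from 0.016 to 0.045 for kinases and phosphatases and from 0.00050 to 0.050 for tubulins. The cause of these shifts was not tested.

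Same-numbered libraries share only a number, with a correlation of 0.0275 between the replicate differences of the 2 groups across genes. With the replicate number as a block the members' values were -0.24 for MAP1A, -0.08 for MAP1B, -0.07 for MAP2, 0.21 for MAP4, 0.07 for MAP6 and 0.17 for MAPT. The block gave 13 called listed genes. The MAP1A to MAP1B difference was -0.16 (exact sign-flip p = 1), which equals the unblocked value by construction. With 2 differences the sign-flip test could not pass at any size. Precision is limited by 2 libraries per group rather than by counts.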
